A study of Mus musculus with 19 samples.

Results

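Transcripts of 10 neutrophil and myeloid receptor genes, Ly6g, Cd177, Retnlg, Csf3r, Cxcr2, Fpr1, Fpr2, Itgam, Trem1 and Clec4d, were followed in mouse tongue epithelia after induction of E6-E7, of active YAP or of both. RNA of the epithelia of 19 mice had been sequenced in bulk 15 days after transgene induction. The tetON effectors depend on doxycycline, fed in chow, and on rtTA. LSL-rtTA was opened in keratinocytes by Krt14-CreERT, a recombinase that needs tamoxifen, here injected into the tongue. The 5 E mice carried tetON_E6-E7, the oncogenes of human papillomavirus, the 3 Y mice carried tetON_YAP1S127A, a YAP that escapes inhibitory phosphorylation, and the 6 EY mice carried both. Of the 5 normal control mice (N), mice 1 to 3 carried Krt14-CreERT and LSL-rtTA without an effector, mouse 4 had LSL-rtTA without the Cre, and mouse 5 had Krt14-CreERT and both effectors without rtTA. The driver is a keratinocyte promoter, so that leukocytes in these epithelia were not its target. Reads recovered from the values numbered 8269674 to 11007304 a mouse, with medians of 9637779 in N mice, 8848776 in E mice, 8679053 in Y mice and 9448942 in EY mice.

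Neutrophils are short-lived granulocytes that leave the blood along chemokine gradients and enter inflamed mucosa. Their production depends on granulocyte colony-stimulating factor acting through Csf3r, and their entry into tissue on CXC chemokines acting through Cxcr2. Formyl peptide receptors sense bacterial and mitochondrial peptides, the integrin chain Itgam holds the cell to endothelium and to complement-coated surfaces, and Trem1 and Clec4d pass activating signals through adaptor chains. Ly6g, Cd177 and Retnlg are transcribed mainly in neutrophils of the mouse, whereas Itgam, Csf3r, Clec4d and the formyl peptide receptors are shared with monocytes and macrophages.

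Ly6g, Cd177 and Retnlg were nearly silent in N and E epithelia and present in most EY epithelia. Cd177 and Retnlg were also present in 2 of 3 Y mice, whereas Ly6g was at 0 in all Y mice. Ly6g and Cd177 rose in EY against N epithelia, 2 of the 10 genes, where 12.6% of all genes tested were called higher. Ly6g passed the filter on low values through EY mice alone. Cd177 reached 0.1 TPM in 2 Y and 4 EY mice, where 3 mice are needed, so that it too needed EY mice to pass. No member that passed without EY mice was called. Retnlg, Trem1 and Cxcr2 had log2 fold changes above 2 in that comparison without passing the threshold. Itgam, Clec4d, Fpr1 and Fpr2, which macrophages share, were higher in N mouse 1 than in any EY mouse, whereas Csf3r, also shared, was higher in EY mice 1 and 4 than in N mouse 1. DEGs were called by limma on log2(TPM + 0.1), with an adjusted p under 0.01 and a change of more than 1 log2 unit in either direction. More cells and more RNA per cell cannot be told apart in bulk tissue.

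**Figure D1:**
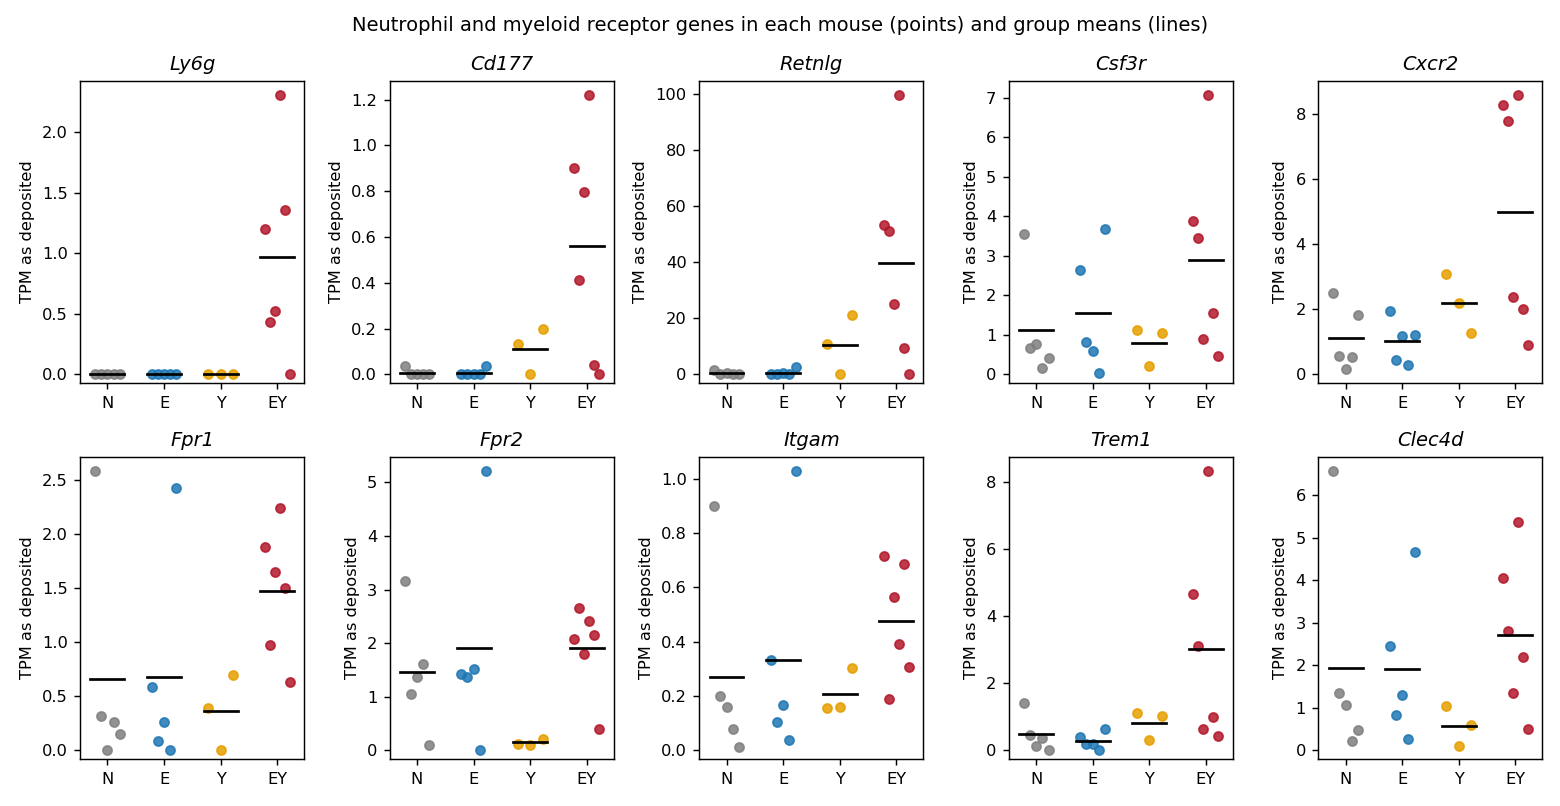
TPM as deposited (y axis, its own scale for each gene) of the 10 genes in each of 19 mice by group (x axis), with points for mice and lines for group means. Ly6g is at 0 in all N, E and Y mice and reaches 2.31 in EY mouse 4, while Clec4d reaches 6.58 in N mouse 1.

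Ly6g encodes a surface protein of mouse neutrophils and is the usual marker of these cells. It was listed at 0 TPM in all 5 N, all 5 E and all 3 Y mice. In EY epithelia it ranged from 0 to 2.31 TPM with a median of 0.865. The 5 EY mice above 0 thus lay above every mouse of the other groups, and EY mouse 6 shared their value of 0. These values rest on 35 reads in all, between 0 and 14 in a mouse. Against the level that 3 reads over the whole group would have given, the mean in EY epithelia was at least 11.1-fold higher than in N, at least 9.99-fold higher than in E and at least 5.64-fold higher than in Y. Floors and intervals from reads cover counting error only. Ly6g was called in EY against N epithelia (log2 fold change 2.87, SE 0.55, adjusted p = 0.000386, 5 of 6 EY mice higher), and it passed the filter on low values through EY mice alone. The SE pools the spread of all groups, and the N, E and Y mice, all at 0, add none to it. In all its comparisons the SE and adjusted p of Ly6g thus do not measure the spread among EY mice alone. By limma with the groups compared alone the adjusted p against N was 0.00623. The call held with each of the 19 mice left out in turn. Leaving out an N, E or Y mouse could not change the fold change, because all of these are at 0. Over all mice left out the log2 fold change of Ly6g ran from 2.53 to 3.44. With a pseudocount of 1 TPM its log2 fold change was 0.87, too small for a call, at an adjusted p of 0.00219 in a range of 5.12e-06 to 0.00623 over the alternatives. With a pseudocount of 0.01 TPM it was 5.51, and Ly6g was called.

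Cd177, a neutrophil surface glycoprotein that binds PECAM1, was at 0.0349, 0, 0, 0 and 0 TPM in N mice 1 to 5, and at 0, 0, 0, 0 and 0.0384 in E mice 1 to 5. Y mice 1 to 3 had 0.132, 0 and 0.2, and EY mice ranged from 0 to 1.22 with a median of 0.603. EY mice 1 to 4 were higher than all other mice, EY mouse 5 lay at 0.0403 on 1 read, below Y mice 1 and 3, and EY mouse 6 was at 0. A single read lay behind the N group and another behind the E group, against 8 reads in Y and 85 in EY epithelia. The ratio of reads per depth was 70.3 for EY over N, with a 95% counting interval of 12.3 to 2810. Cd177 was called in EY against N epithelia (log2 fold change 2.09, SE 0.57, adjusted p = 0.00628, 5 of 6 EY mice above the N mean TPM). It reached 0.1 TPM in 2 Y and 4 EY mice, so that it passed the filter of 3 mice only with EY mice counted. The log2 fold change depended on the setting, with 0.57 at a pseudocount of 1 TPM, 4.15 at 0.01 TPM and 3.48 by voom. The call was lost in 8 of 19 fits that each left out 1 mouse, those without N mouse 2, 3, 4 or 5 or EY mouse 1, 2, 3 or 4, where the adjusted p reached 0.0165. The call was also lost with a pseudocount of 1 TPM, with quantile normalization, with the 3 N mice alone as controls and with the groups compared alone, in a range of 0.000946 to 0.0361 over the alternatives, and a filter of 1 TPM took Cd177 out of the test.

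Retnlg, a secreted protein of the resistin family made by mature neutrophils, was at 1.52, 0, 0.341, 0.262 and 0 TPM in N mice 1 to 5 and at 0, 0, 0.352, 0 and 2.68 in E mice 1 to 5. Y mice 1 to 3 had 10.8, 0 and 21.2, and EY mice ranged from 0 to 99.7 with a median of 38.1. Y mice 1 and 3 and EY mice 1 to 5 were above every N and E mouse, whereas Y mouse 2 and EY mouse 6 were at 0. Its log2 fold change of 5.49 for EY against N (95% interval 1.92 to 9.07, adjusted p = 0.0143, 5 of 6 EY mice above the N mean TPM) did not pass the threshold. It passed without EY mouse 6 (6.91, adjusted p = 0.000556) or without Y mouse 2 (5.49, adjusted p = 0.00706), in a range of 0.000556 to 0.0377 over the mice left out. With a pseudocount of 1 TPM it was the only member called (log2 fold change 3.95, adjusted p = 0.00332, 5 of 6 EY mice above the N mean TPM), in a range of 0.00116 to 0.075 over the alternatives, and neither Ly6g nor Cd177 was called.

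Csf3r and Cxcr2 are the receptors for granulocyte colony-stimulating factor and for CXC chemokines such as Cxcl1 and Cxcl5. Csf3r lay between 0.173 and 3.55 TPM in N mice and between 0.0336 and 3.69 in E mice, and Y mice had 1.12, 0.224 and 1.05 against a range of 0.476 to 7.07 among EY mice. Cxcr2 was at 2.51, 0.565, 0.176, 0.542 and 1.83 TPM in N mice 1 to 5, and at 1.96, 0.446, 1.18, 0.276 and 1.21 in E mice 1 to 5. Y mice 1 to 3 had 3.08, 2.19 and 1.26, and EY mice ranged from 0.897 to 8.58 with a median of 5.07. EY mice 1, 2 and 4 had more Cxcr2 than all other mice, while EY mice 3, 5 and 6 lay within the range of the other groups. Cxcr2 had a log2 fold change of 2.07 for EY against N (SE 0.67, adjusted p = 0.0197, 5 of 6 EY mice above the N mean TPM) and Csf3r one of 1.40 (SE 0.86, adjusted p = 0.214, 4 of 6). Cxcr2 passed the threshold without N mouse 1 (2.45, adjusted p = 0.00868) or without EY mouse 6 (2.45, adjusted p = 0.00567), in a range of 0.00567 to 0.0636 over the mice left out.

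Trem1, a receptor that amplifies inflammatory signals in neutrophils and monocytes, was highest in the same EY mice. It was at 1.41, 0.455, 0.136, 0.347 and 0 TPM in N mice 1 to 5, and at 0.387, 0.183, 0.186, 0 and 0.62 in E mice 1 to 5. Y mice 1 to 3 had 1.12, 0.314 and 1.01, and EY mice ranged from 0.418 to 8.35 with a median of 2.05. EY mice 1, 2 and 4 stood above every other mouse, and the remaining EY mice overlapped with N and Y mice. The log2 fold change for EY against N was 2.32 (SE 0.79, adjusted p = 0.0246, 5 of 6 EY mice above the N mean TPM), and without N mouse 1 it passed the threshold (2.81, adjusted p = 0.00885), in a range of 0.00885 to 0.0795 over the mice left out. Clec4d, a C-type lectin that recognizes microbial glycolipids, had a range of 0.224 to 6.58 TPM among N mice and of 0.254 to 4.67 among E mice. The Y mice had 1.04, 0.0966 and 0.596, and EY mice 0.495 to 5.37 with a median of 2.5. EY mice overlapped with N, E and Y mice for Clec4d, with a log2 fold change of 0.97 for EY against N (SE 0.80, adjusted p = 0.367, 4 of 6 EY mice above the N mean TPM).

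Fpr1 and Fpr2 are the receptors for formylated peptides. Fpr2, which also binds annexin A1 and serum amyloid A, was at 3.16, 1.05, 1.36, 1.61 and 0.0905 TPM in N mice 1 to 5, and at 1.43, 1.37, 1.51, 0 and 5.22 in E mice 1 to 5. It was at 0.118, 0.104 and 0.213 in Y mice 1 to 3, and EY mice ranged from 0.386 to 2.65 with a median of 2.11. The Y mice, with 1 or 2 reads each, were below all mice of the other groups except N mouse 5 and E mouse 4, and all 6 EY mice were above all 3 Y mice. Fpr1 reached 2.59 TPM in N mouse 1 and 2.43 in E mouse 5, above the EY mice with 0.634 to 2.24, and Y mice had 0.386, 0 and 0.699. Itgam, the alpha chain of the complement receptor CD11b/CD18, reached 0.898 in N mouse 1 and 1.03 in E mouse 5, was between 0.155 and 0.304 in Y mice and between 0.19 and 0.717 in EY mice. For EY against N, the log2 fold change was 1.88 for Fpr1 (adjusted p = 0.0838, 5 of 6 EY mice above the N mean TPM), 0.98 for Itgam (adjusted p = 0.172, 5 of 6) and 0.66 for Fpr2 (adjusted p = 0.574, 5 of 6).

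Deposited TPM compare a gene between mice and not genes with each other, because the value of 1 read follows the whole span of a gene, introns included. Levels per exon length, scaled to the same sum, were therefore used between genes. On that scale the mean in EY epithelia was 55.4 for Retnlg, 9.85 for Clec4d, 7.02 for Csf3r, 6.28 for Trem1, 5.22 for Cxcr2, 4 for Fpr2, 3.69 for Fpr1, 2.35 for Itgam, 1.77 for Ly6g and 1.42 for Cd177. In N epithelia Clec4d averaged 7.19, Fpr2 3.12, Csf3r 2.79 and Retnlg 0.606.

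**Figure D2:**
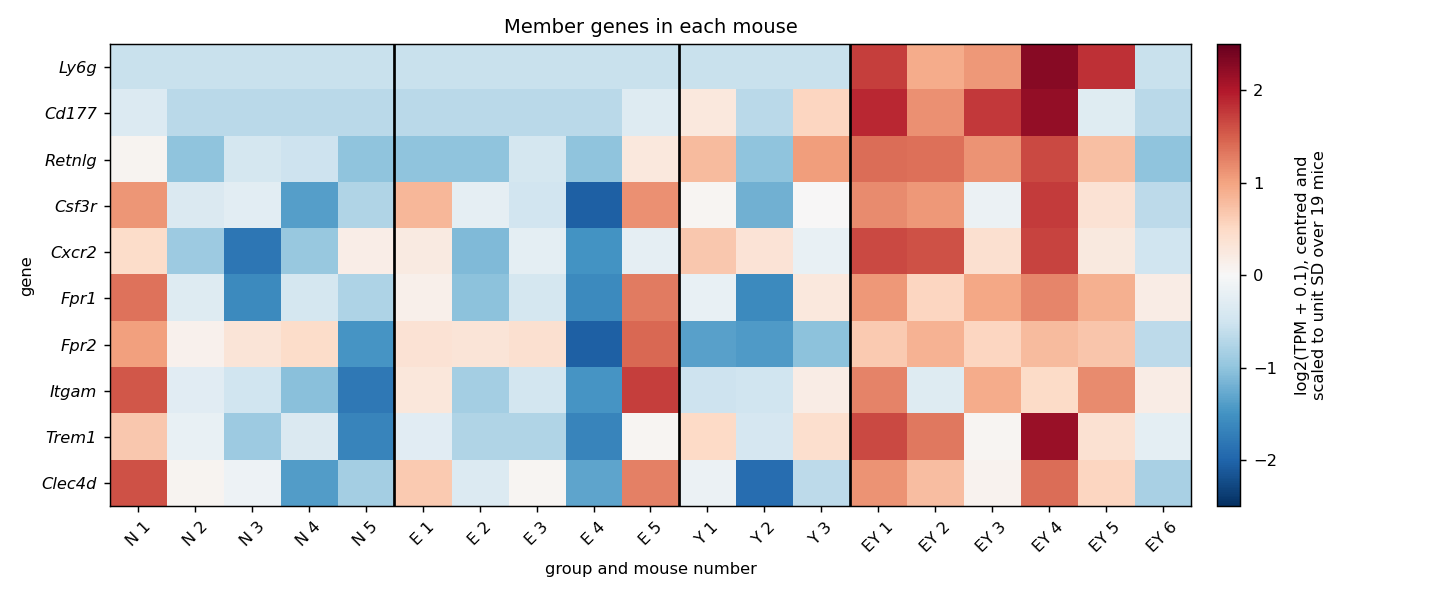
Each row is a gene and each column a mouse by group, and the colour gives log2(TPM + 0.1) centred on the gene's mean and scaled to unit SD over 19 mice. EY mouse 4 is high for Ly6g, Cd177 and Retnlg, at 2.31, 1.22 and 99.7 TPM, and EY mouse 6 is low for these genes, at 0.

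The start regions of the 5 genes with the largest log2 fold changes in EY against N epithelia by limma on log2(TPM + 0.1) follow, a choice made after the values were seen. Fpr1 stood above Cxcr2 by voom (2.05 against 2.00) and with reads divided by exon length (2.24 against 2.05). Each has 300 bases, from 250 before the start to 50 after it, taken by symbol from RefSeq on build GRCm38.p6, where all 10 genes were found. Capitals mark matches on either strand to GAGGAA (ETS family, which includes the myeloid factor PU.1), TTGCNNAA (C/EBP), TTCNNNGAA (STAT), GGAATG (TEAD, the DNA-binding partner of YAP) and TGANTCA (AP-1), and neighbouring matches can run into each other.
Ly6g, chromosome 15, 75155011 to 75155310, plus strand: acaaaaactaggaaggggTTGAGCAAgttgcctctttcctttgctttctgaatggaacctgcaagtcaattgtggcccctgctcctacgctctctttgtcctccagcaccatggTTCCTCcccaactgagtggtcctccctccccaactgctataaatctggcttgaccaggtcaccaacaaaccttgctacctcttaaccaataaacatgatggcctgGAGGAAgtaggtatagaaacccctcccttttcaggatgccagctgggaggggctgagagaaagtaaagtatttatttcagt
Cd177, chromosome 7, 24760262 to 24760561, minus strand: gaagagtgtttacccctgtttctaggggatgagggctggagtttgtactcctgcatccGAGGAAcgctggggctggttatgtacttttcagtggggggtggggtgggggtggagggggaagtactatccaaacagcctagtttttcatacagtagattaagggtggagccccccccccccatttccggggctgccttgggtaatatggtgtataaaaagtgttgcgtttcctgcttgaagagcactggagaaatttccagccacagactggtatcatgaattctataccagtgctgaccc
Retnlg, chromosome 16, 48872358 to 48872657, plus strand: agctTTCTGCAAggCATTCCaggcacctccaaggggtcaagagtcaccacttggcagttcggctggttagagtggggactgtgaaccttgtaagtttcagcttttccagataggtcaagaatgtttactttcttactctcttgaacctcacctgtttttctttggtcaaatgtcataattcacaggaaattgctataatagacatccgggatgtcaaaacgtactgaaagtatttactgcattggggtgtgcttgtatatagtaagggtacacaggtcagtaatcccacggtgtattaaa
Cxcr2, chromosome 1, 74153744 to 74154043, plus strand: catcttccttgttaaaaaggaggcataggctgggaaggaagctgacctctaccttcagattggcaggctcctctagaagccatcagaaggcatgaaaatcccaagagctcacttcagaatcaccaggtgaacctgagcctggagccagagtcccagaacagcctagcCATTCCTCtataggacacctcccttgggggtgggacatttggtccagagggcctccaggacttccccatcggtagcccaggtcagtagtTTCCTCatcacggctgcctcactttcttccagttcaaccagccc
Trem1, chromosome 17, 48232489 to 48232788, plus strand: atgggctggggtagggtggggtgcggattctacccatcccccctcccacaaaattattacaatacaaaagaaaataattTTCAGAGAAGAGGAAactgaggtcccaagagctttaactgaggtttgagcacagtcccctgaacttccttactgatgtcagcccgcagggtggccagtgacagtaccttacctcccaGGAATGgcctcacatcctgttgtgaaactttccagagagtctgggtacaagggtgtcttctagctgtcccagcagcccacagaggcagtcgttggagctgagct
Ly6g has 2 starts in RefSeq, of which 1 is shown, with 2 matches to GAGGAA and 1 to TTGCNNAA. Cd177 held 1 match to GAGGAA, Retnlg 1 to TTGCNNAA and 1 to GGAATG, Cxcr2 2 to GAGGAA and 1 to GGAATG, and Trem1 1 each to GAGGAA, TTCNNNGAA and GGAATG. Over 32851 such windows of mouse genes, 28.3% held GAGGAA, 10.8% TTGCNNAA, 8.3% TTCNNNGAA, 14.7% GGAATG and 7.81% TGANTCA. A match is a run of letters and not a measured binding site.

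Active YAP alone was compared with N epithelia to ask what it does without E6-E7. Limma called 0 of 10 members, against 4.58% of all genes tested, and limma voom on reads called 0. At an unadjusted p below 0.05 there was 1 member by limma, against 28.9% of all genes, and 0 by voom. The member below 0.05 was Fpr2, with a log2 fold change of -2.22 (SE 1.01, adjusted p = 0.156, 3 of 3 Y mice below the N mean TPM). Retnlg had 3.23 (95% interval -1.08 to 7.54, adjusted p = 0.325, 2 of 3 Y mice above the N mean TPM). No fold change is given for Ly6g, which was at 0 in both groups.

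E6-E7 alone was compared with N epithelia in the same way. Limma called 0 of 10 members, against 1.2% of all genes tested, with 0 at an unadjusted p below 0.05, against 14.8% of all genes, and voom gave 0 for both. Log2 fold changes lay between -0.33 for Trem1 and 0.29 for Clec4d, leaving aside Ly6g and Cd177, which had at most 1 read in a group. The 95% intervals were wide, -1.48 to 2.06 for Clec4d and -3.95 to 3.53 for Retnlg, so that smaller differences than these were not detectable.

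What active YAP adds to E6-E7 was read from EY against E epithelia. Ly6g and Cd177 were called, 2 of 10 members against 7.82% of all genes tested called higher, and both needed EY mice to pass the filter. Ly6g had a log2 fold change of 2.87 (SE 0.55, adjusted p = 0.000506, 5 of 6 EY mice higher) and Cd177 one of 2.08 (SE 0.57, adjusted p = 0.00788, 5 of 6 EY mice above the E mean TPM), with a ratio of reads of 64.5 and a counting interval of 11.3 to 2580. Among the EY mice above the E mean for Cd177, EY mouse 5 had 1 read. Retnlg had 5.70 (adjusted p = 0.0137, 5 of 6), Trem1 2.65 (adjusted p = 0.0138, 6 of 6) and Cxcr2 2.02 (adjusted p = 0.0265, 5 of 6), none of them called. The Ly6g call held with any 1 mouse left out and was lost with a pseudocount of 1 TPM. Leaving out an N, E or Y mouse, all at 0 for Ly6g, could not change its fold change. These mice also add no spread to its SE. The Cd177 call was lost in 14 of 19 such fits, those without any 1 of the N or E mice or without EY mouse 1, 2, 3 or 4, with an adjusted p of up to 0.0202. That call was also lost with a pseudocount of 1 or 0.01 TPM, median-of-ratios scaling, quantile normalization, the 3 N mice, the groups compared alone and voom, in a range of 0.00126 to 0.0328 over the alternatives, and a filter of 1 TPM took Cd177 out of the test. Retnlg passed without EY mouse 6 (7.12, adjusted p = 0.000575), without E mouse 5 (6.55, adjusted p = 0.00837) or without Y mouse 2 (5.70, adjusted p = 0.00672), in a range of 0.000575 to 0.0361 over the mice left out. Trem1 passed without EY mouse 6 (3.03, adjusted p = 0.00614) or without EY mouse 3 (2.93, adjusted p = 0.00957), in a range of 0.00614 to 0.0433, and Cxcr2 passed without EY mouse 6 (2.40, adjusted p = 0.00792), in a range of 0.00792 to 0.0764.

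What E6-E7 adds to active YAP was read from EY against Y epithelia. Ly6g was called, 1 of 10 members against 1.07% of all genes tested called higher (log2 fold change 2.87, SE 0.64, adjusted p = 0.00982, 5 of 6 EY mice higher), while voom called 0. Ly6g passed the filter on low values through EY mice alone, the group where it is high. Its SE does not measure the spread among EY mice alone, because the N, E and Y mice, all at 0, add none. Limma called 0 of the 9 other members, with 3 at an unadjusted p below 0.05, and voom 0, with 2 below 0.05. Of all genes, 23.9% were below 0.05 by limma. Cd177, among these 9, also needed EY mice to pass the filter. The Ly6g call was lost in 18 of 19 fits with 1 mouse left out and kept without EY mouse 6 (3.44, adjusted p = 6.16e-05), in a range of 6.16e-05 to 0.0463 with the highest value without Y mouse 1. The call was also lost with a pseudocount of 1 TPM, a filter of 1 TPM, median-of-ratios scaling, quantile normalization, the 3 N mice, the groups compared alone and a robust or an untrended eBayes, in a range of 0.001 to 0.0908 over the alternatives. Fpr2 had 2.88 (SE 0.98, adjusted p = 0.0792, 6 of 6 EY mice above the Y mean TPM). Fpr1 had 2.12 (adjusted p = 0.2, 6 of 6 EY mice above the Y mean TPM), Clec4d 2.07 (adjusted p = 0.189, 5 of 6) and Retnlg 2.26 (adjusted p = 0.527, 4 of 6), with a 95% interval of -1.91 to 6.44 for Retnlg. Without Y mouse 2 the log2 fold change of Retnlg was -0.15, in a range of -0.15 to 3.72 over the mice left out.

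Whether both effectors together gave more than the sum of each alone, on the log2 scale, was tested as an interaction. Limma called 0 of 10 members, against 0.176% of all genes tested, and voom called 0. At an unadjusted p below 0.05 limma had 2 members, against 13.5% of all genes, and voom had 1. Ly6g had an interaction of 2.87 (SE 0.86, adjusted p = 0.133, above 0 in 5 of 6 EY mice and in no other mouse) and Fpr2 one of 2.86 (SE 1.32, adjusted p = 0.354). Without EY mouse 6 the interaction of Ly6g was called (3.44, adjusted p = 0.00257), in a range of 0.00257 to 0.275 over the mice left out. With Ly6g at 0 in all N, E and Y mice this interaction is by construction the same number as its log2 fold change against N, and the mouse left out is the only EY mouse at 0. The response of these genes to YAP is thus not shown to differ with E6-E7 when all mice are used. Comparisons against N share the same N mice, and those of EY the same EY mice.

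All genes moved between groups by an amount that depends on scaling. The median log2 fold change over all genes in EY against N was 0.33, and median-of-ratios scaling shifted it by -0.32, while in EY against E the shift was -0.22, in EY against Y -0.16 and in Y against N -0.17. Ly6g stayed higher in EY against N under that scaling, with a log2 fold change of 2.72, and Cd177 had 1.95. The call of Cd177 in EY against E and that of Ly6g in EY against Y were lost under it.

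General leukocyte transcripts, which are not particular to myeloid cells, were compared next. Beside the counts of this list and later ones, 48.6% of all genes were at an unadjusted p below 0.05 in EY against N. This share was 43.6% in EY against E, 23.9% in EY against Y, 28.9% in Y against N, 14.8% in E against N and 13.5% for the interaction. Limma called none of the 5 pan-leukocyte genes Ptprc, Cd52, Cd53, Coro1a and Laptm5 in any comparison, with 2 at an unadjusted p below 0.05 in EY against N and 2 in EY against Y. All 5 had log2 fold changes above 0 in both, with medians of 0.73 and 0.94. Their summed level per exon length averaged 69.7 (N), 82.5 (E), 51.5 (Y) and 94.4 (EY), with Cd52 most abundant. It was 121 in N mouse 1, 115 in E mouse 5, 76.6 in EY mouse 4 and 89.4 in EY mouse 6.

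The members were then tested relative to the mean log2 value of these 5 genes in the same mouse, and limma called none in any comparison. Shares of all genes given beside calls are of calls in either direction, with the part called higher after them. In EY against N 0 of 10 were called, against 7.85% of all genes (1.51% higher), with 3 at an unadjusted p below 0.05. In EY against E 0 of 10 were called, against 3.82% (0.642% higher), with 5 below 0.05, and in EY against Y 0 of 10, against 0.572% (0.0352% higher), with 2 below 0.05. Y against N gave 0 of 10, against 0.303% (0.273% higher), with 1 below 0.05, and E against N 0 of 10, against 0.0308% (0.0308% higher), with 0 below 0.05. Of all genes, 30.5% were at an unadjusted p below 0.05 in EY against N, 21.5% in EY against E and 22.3% in EY against Y. In Y against N it was 9.69% and in E against N 4.59%. In EY against N the relative log2 fold change was 4.65 for Retnlg (SE 1.53, adjusted p = 0.0432) and 2.02 for Ly6g (SE 0.67, adjusted p = 0.0448), genes that 5 of 6 EY mice had above the N mean in TPM. It was 1.47 for Trem1, 1.24 for Cd177, 1.22 for Cxcr2, 1.04 for Fpr1, 0.55 for Csf3r, 0.13 for Itgam, 0.12 for Clec4d and -0.19 for Fpr2. By construction the relative value of Ly6g in N, E and Y mice, all at 0, carries the pan-leukocyte mean alone. The same holds for other mice at 0. For Retnlg these were N mice 2 and 5 and E mice 1, 2 and 4, and for Cd177 N mice 2 to 5 and E mice 1 to 4. Y mouse 2 and EY mouse 6 were at 0 for both genes. Without EY mouse 6, Retnlg was called in EY against N (6.06, adjusted p = 0.00182) and in EY against E (6.55, adjusted p = 0.00142). Ly6g passed there too, and the calls of both genes by construction rest in part on that pan-leukocyte mean.

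**Figure D3:**
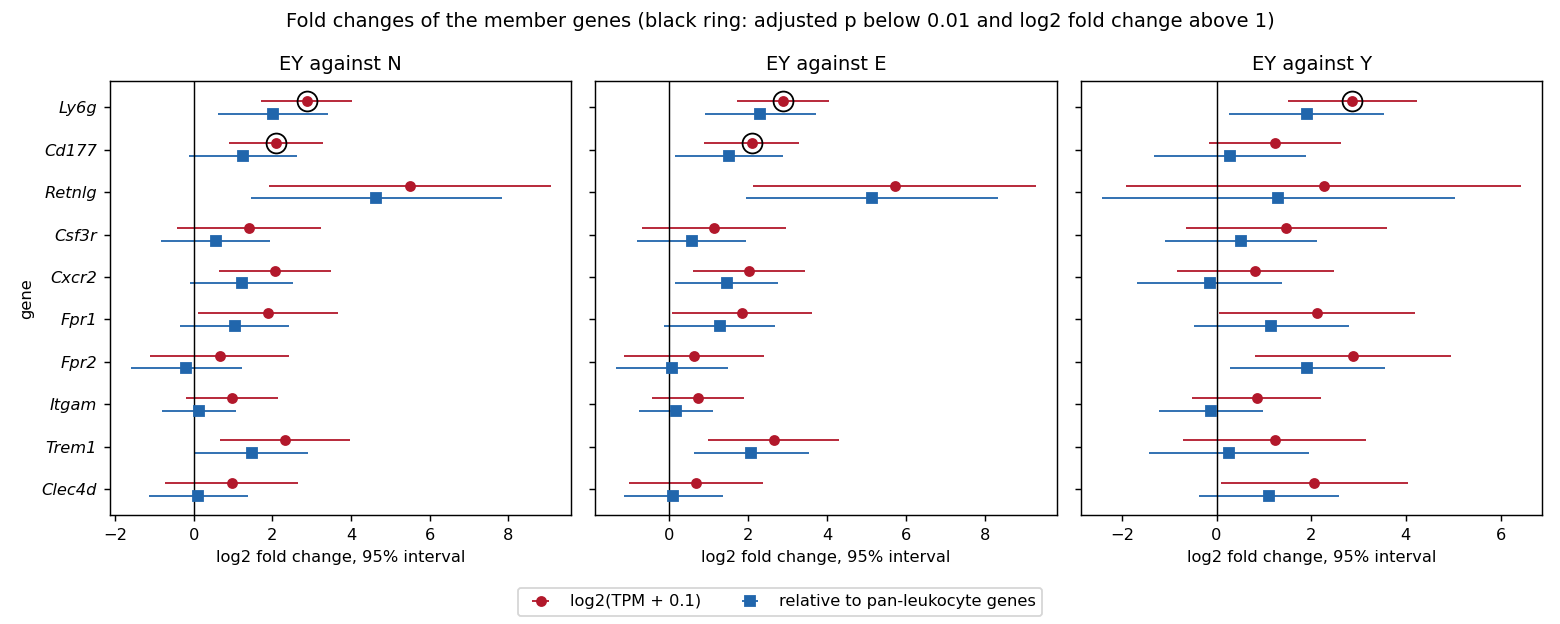
Log2 fold changes (x axis) of the 10 genes (y axis) in EY against N, E and Y with 95% intervals, from log2(TPM + 0.1) as red circles and relative to pan-leukocyte genes as blue squares. Black rings mark calls, Ly6g in all 3 panels and Cd177 against N and E, and no blue square is ringed.

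Ligands of these receptors were compared next. Of 13 ligand genes, 7 rose and 1 fell in EY against N, where 12.6% of all genes tested were called higher. Csf3, the ligand of Csf3r, was at 0 in all 5 N mice, between 0 and 0.821 TPM in E mice and between 1.22 and 3.04 in Y mice. EY mice 1 and 4 had 28.8 and 54.8, which carry the EY mean, and the other EY mice 1.5 to 4.63. The mean of Csf3 was at least 110.0-fold higher in EY and at least 12.9-fold higher in Y than the floor of 3 reads over the N group. Csf3 was called in both (adjusted p = 8.57e-06 for EY, adjusted p = 0.00653 for Y, with all 9 of these mice above all N mice). For the genes that follow, the count after each p is the number of mice of the first group on that side of the mean TPM of the second. Of the ligands of Cxcr2, Cxcl1 (log2 fold change 5.19, adjusted p = 3.2e-05, 6 of 6), Cxcl3 (4.17, adjusted p = 0.0064, 6 of 6) and Ppbp (6.29, adjusted p = 0.00318, 6 of 6) rose in EY against N, and Cxcl5 (4.33, adjusted p = 0.0185, 5 of 6) and Cxcl2 (1.96, adjusted p = 0.0304, 5 of 6) were not called. Cxcl1 was also called in Y against N (4.34, adjusted p = 0.004, 3 of 3).

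Anxa1, the gene of annexin A1 and the most abundant ligand gene, rose by a log2 fold change of 2.90 in EY and 2.49 in Y against N (adjusted p = 5.07e-08, 6 of 6, and adjusted p = 2.7e-05, 3 of 3). Icam1, a ligand of the Itgam integrin, rose in E against N (1.94, adjusted p = 0.00601, 5 of 5), in EY against N (3.90, adjusted p = 1.88e-07, 6 of 6) and in EY against Y (2.46, adjusted p = 0.00193, 6 of 6), and all 6 EY mice were above all other mice. Pglyrp1, a ligand of Trem1, rose in EY against N (1.56, adjusted p = 0.00269, 6 of 6), and Saa1 fell by 4.88 on the log2 scale (adjusted p = 0.000844, 6 of 6). Calls numbered 3 higher in Y against N (3.47% of all genes tested), 1 higher in E against N (1.16%), 1 higher in EY against Y (1.07%), 7 higher and 1 lower in EY against E (7.82% higher and 4.99% lower), and 0 for the interaction by limma, with 0 at an unadjusted p below 0.05. The summed level of the list per exon length averaged 544 (N), 735 (E), 2790 (Y) and 4110 (EY). Most of it was Anxa1, with 552 of 570 in N mouse 4, 3200 of 3320 in Y mouse 2 and 4600 of 5130 in EY mouse 2. Keratinocytes make several of these ligands too, and bulk tissue does not show which cells made them.

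**Figure D4:**
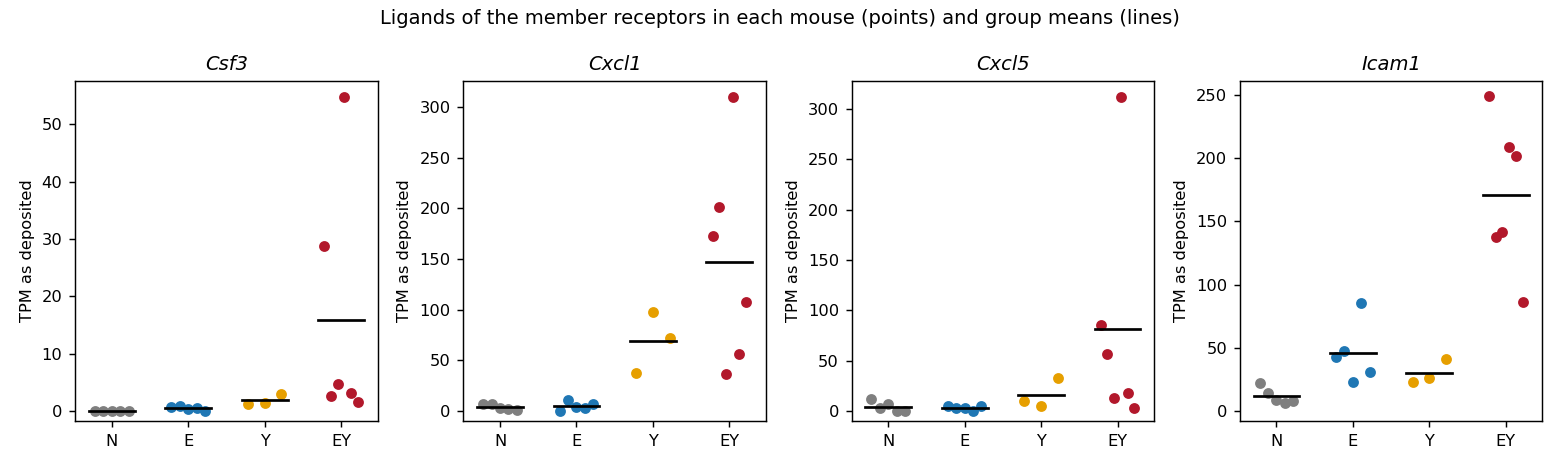
TPM as deposited (y axis) of Csf3, Cxcl1, Cxcl5 and Icam1 in each of 19 mice by group (x axis), with points for mice and lines for group means. Csf3 and Cxcl5 are highest in EY mouse 4, at 54.8 and 312 TPM, and lowest among EY mice in EY mouse 6, at 1.5 and 2.88.

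EY mice differed among themselves in receptors and in ligands. EY mouse 4 was the highest of all mice in Ly6g, Cd177, Retnlg, Csf3r, Cxcr2 and Trem1, and also in Csf3, Cxcl1, Cxcl2, Cxcl3, Cxcl5 and Ppbp. EY mouse 6 was at 0 for Ly6g, Cd177 and Retnlg and the lowest EY mouse in Csf3, Cxcl3, Cxcl5, Ppbp and S100a8. It was not the lowest in Cxcl1, where EY mice 3 and 5 were lower, or in Cxcl2, where EY mouse 3 was. EY mouse 6 had 10479722 reads, against a median of 9448942 in EY mice. These are descriptions of 6 mice without a test.

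Partners and signalling adaptors of the receptors were not called by limma in any comparison (0 of 13), with 3 at an unadjusted p below 0.05 in EY against N and 4 in EY against Y. In EY against N Tyrobp, the adaptor of Trem1, had a log2 fold change of 0.96 (adjusted p = 0.126, 6 of 6), Fcer1g, the adaptor used by Clec4d, 0.94 (adjusted p = 0.35, 5 of 6) and Itgb2, the chain paired with Itgam, 0.29 (adjusted p = 0.769, 2 of 6). Of 26 related receptors and paralogs, 17 could be tested, and Ly6c1 alone was called, higher in EY and Y against N (4.05, adjusted p = 2.49e-08, 6 of 6, and 2.94, adjusted p = 7.07e-05, 3 of 3) and in EY against E (2.97, adjusted p = 1.52e-06, 6 of 6). Of all genes tested, 12.6%, 3.47% and 7.82% were called higher in these comparisons. By limma, 7, 2 and 2 of the 17 were at an unadjusted p below 0.05 in them, and 7 in EY against Y. Cxcr1 was above 0 only in N mouse 1, EY mouse 2 and EY mouse 4. Ly6g with Ly6c1, Ly6c2 and Ly6i, the formyl peptide receptors and the Stfa genes belong to families of related genes. How any reads shared within a family were assigned is not known.

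Other genes of neutrophils, some of granule proteins and some not, moved in part. Of 18 listed genes 14 could be tested, and 5 rose in EY against N epithelia, where 12.6% of all genes tested were called higher, Chil3 (log2 fold change 4.71, adjusted p = 0.000189, 6 of 6), Lcn2 (4.43, adjusted p = 0.000426, 6 of 6), Ifitm6 (4.14, adjusted p = 0.00847, 5 of 6), Mmp8 (3.58, adjusted p = 0.000313, 6 of 6) and Stfa2l1 (3.31, adjusted p = 0.00156, 6 of 6). Chil3, Lcn2, Mmp8 and Stfa2l1 also rose in EY against E, where 7.82% of all genes were called higher. Lcn2 was at 14.6 TPM in Y mouse 2, where Ly6g, Cd177 and Retnlg were at 0. Log2 fold changes were above 0 for 11 of 14 in EY against N (median 1.35) and for 14 of 14 in EY against E (median 2.30). In TPM, 2 of 6 EY mice were above the N mean for Mmp9 and 0 of 6 for Ltf. Limma called 0 of 14 in the remaining comparisons, with 2 at an unadjusted p below 0.05 in Y against N, 0 in E against N, 3 in EY against Y and 0 for the interaction. Mpo, Camp and Ngp, which are transcribed in marrow precursors, reached 0.568, 2.45 and 4.82 TPM at most. In TPM, 5 of 6 EY mice were above the N mean for Ngp, 3 of 6 for Mpo and 2 of 6 for Camp. Ltf reached 15.4 TPM in N mouse 2. Summed per exon length the list averaged 28.1 (N), 13.4 (E), 35.5 (Y) and 105 (EY), from 13.8 in EY mouse 6 to 228 in EY mouse 4. Of 7 neutrophil genes also made by keratinocytes, S100a8, S100a9 and Wfdc21 rose and Asprv1 fell in EY against N, and S100a8 and S100a9 rose in Y against N (log2 fold changes 5.44 and 5.89), where Ly6g was at 0. In EY against E S100a8 and S100a9 rose and Asprv1 and Slpi fell.

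Macrophage transcripts were compared because macrophages share many of the members. Limma called 0 of 11 monocyte and macrophage genes in EY against N, with 5 at an unadjusted p below 0.05, and 0 in EY against Y, with 8 below 0.05, while Mrc1 was called in EY against E (1.86, adjusted p = 0.00452, 6 of 6). Log2 fold changes were above 0 for 10 of 11 in EY against N (median 1.41, against 0.33 over all genes) and for 11 of 11 in EY against Y (median 1.90). C1qa, a complement gene of tissue macrophages, was at 67.7, 24, 10.9, 3.92 and 6.34 TPM in N mice 1 to 5 and at 25.6, 10.5, 19.9, 2.55 and 47.4 in E mice 1 to 5. The Y mice 1 to 3 had 3.5, 6.6 and 17.4, and EY mice ranged from 16.2 to 54.5. N mouse 1 and E mouse 5 were the highest of their groups in C1qa, as they were in Retnlg, Cd177, Csf3r, Fpr1, Fpr2, Itgam, Trem1 and Clec4d, and like all N and E mice they had no Ly6g. The summed level of the list per exon length was 1330 in N mouse 1, against 166 to 463 in the other N mice, and 950 in E mouse 5, against 45.6 to 533 in the other E mice, with means of 471 (N), 442 (E), 117 (Y) and 451 (EY) and Lyz2 the most abundant gene. The part of macrophages in the result was not tested.

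**Figure D5:**
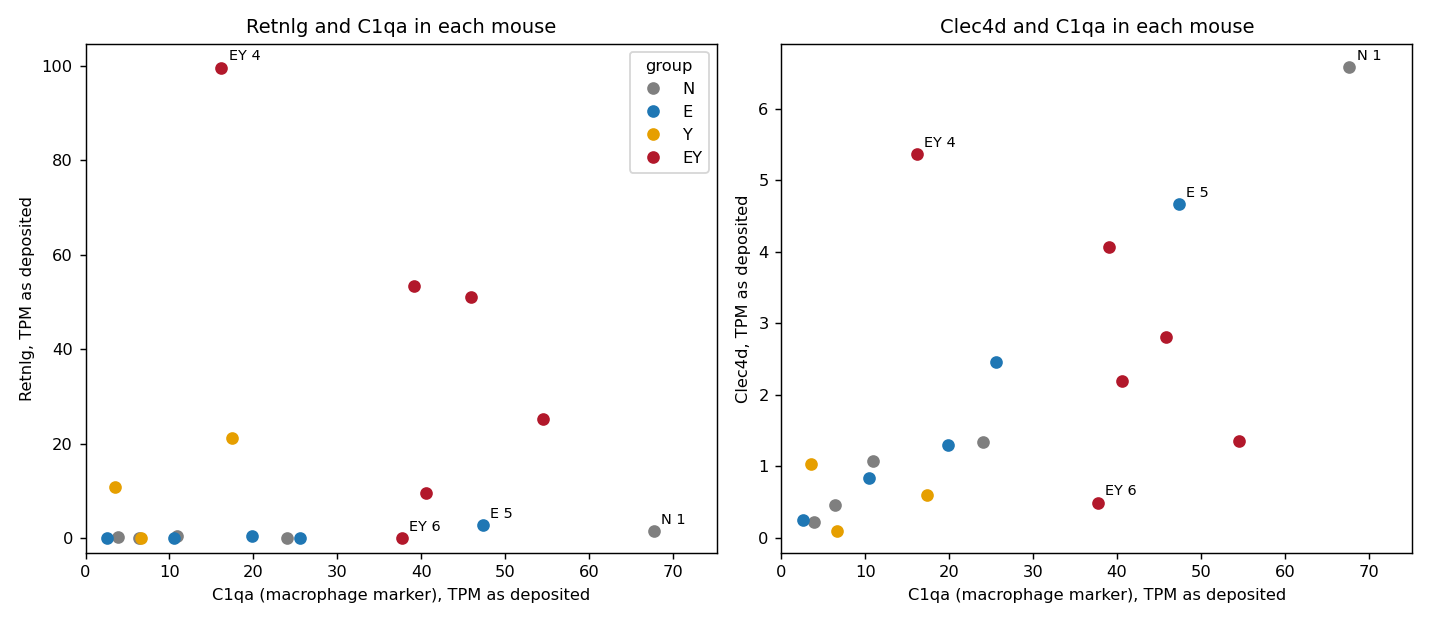
Retnlg (left) and Clec4d (right) on the y axis against the macrophage marker C1qa on the x axis, in TPM as deposited, with a point for each mouse coloured by group. N mouse 1 has 67.7 of C1qa with 1.52 of Retnlg and 6.58 of Clec4d, and EY mouse 4 has 16.2 of C1qa with 99.7 of Retnlg.

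Other cell types were read from marker lists. In EY against N epithelia Ccr7 rose and Cd207 fell among 9 dendritic and Langerhans cell genes, Cd3d rose among 8 T cell genes, all with log2 fold changes above 0 (median 1.46) and 6 of them at an unadjusted p below 0.05, and Dcn fell among 5 fibroblast genes. The other 4 fibroblast genes had log2 fold changes above 0 there and in EY against E, with medians over the 5 of 0.33 and 0.77. Among 6 keratinocyte genes Krt14, Epcam and Cdh1 rose and Krt13 and Krt4 fell. Limma called there 0 of 5 mast cell genes, with 1 at an unadjusted p below 0.05, 0 of 3 platelet genes, with 1, and 0 of 2 B cell, 2 eosinophil, 5 erythrocyte, 4 endothelial and 6 skeletal muscle genes, with 0 below 0.05 in each. In EY against E Krt14 rose and Krt13, Krt4 and Dcn fell, and in Y against N Kit fell by 1.28 on the log2 scale among the mast cell genes. All 6 skeletal muscle genes had log2 fold changes above 0 in EY against N, Y and E, with medians of 1.79, 2.77 and 2.38, and limma called 0 of them, with 0, 5 and 5 at an unadjusted p below 0.05. EY mouse 3 had the highest summed levels of skeletal muscle and erythrocyte genes, 1850 and 446. Their part in the result was not tested.

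Genes whose log2 values were among the most like the mean profile of the members over 19 mice were Cd300lf, Hdc, Srgn, Cd14, Basp1, Ifitm6, Rnd1, Il18rap and Il1b. Pearson's r ran from 0.951 for Cd300lf, a myeloid inhibitory receptor, to 0.893 for Il1b. After group means were subtracted it ran from 0.921 for Hdc, the gene of histidine decarboxylase, to 0.835 for Il18rap. Cd14, a receptor for bacterial lipopolysaccharide, averaged 41.5 TPM among N mice and 119 among EY mice. N mouse 1 had 118, against 7.96 to 39.9 in the other N mice. These genes were chosen by their likeness to the members, and no test is given.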

How the data were processed

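Bulk RNA sequencing had been done on tongue epithelia of 19 mice, separated with collagenase and dispase. The TPM values were made by the authors, who per the submitters' processing notes used STAR 2.7.9 on GRCm39, SAMtools 1.7, HTSeq 0.13.5 and DESeq2 1.34.0. How deposited counts became TPM is not stated. From the values, 1 read of a gene follows the span from gene start to gene end within 1% for 23355 of 23805 symbols, against 152 for exon length. Of 24689 symbols, 24680 were above 0 and all of these gave whole reads at a tolerance of 0.01.

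The 22745 genes that reached 0.1 TPM in 3 or more mice were tested with limma 3.58.1 (R 4.3.3) on log2(TPM + 0.1), with a mean per group and a trended eBayes, and the test was tried on simulated data. Calls needed an adjusted p (Benjamini-Hochberg) under 0.01 together with a change of more than 1 log2 unit in either direction. Comparisons were EY, Y and E against N, EY against Y and E, and the interaction, then the first 5 relative to pan-leukocyte genes. No block was used for mouse numbers, which do not pair the groups. Python 3.11.15 was used for tables and plots. The members and the ligand, partner, paralog and marker lists were chosen with earlier results of these data known. With those results known, all alternatives but 1 were written before the data were examined here, and that 1, reads divided by exon length, was chosen after seeing the data. The genes named are the members, genes of these lists and genes among the most like the members, and some genes of the lists were not used here. Exon lengths came from GENCODE annotation of GRCm38 by symbol. Fpr3, Fpr-rs3, Fpr-rs4, Fpr-rs6, Fpr-rs7, Retnlb, Retn, Elane, Ctsg, Ms4a1, Epx, Prg2, Ear1 and Gp9 were not analysed here. Voom was not read for the ligand, partner, paralog and marker lists.

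The groups are small, with 3 Y mice, and 1 read of Ly6g is worth 0.165 TPM. The pseudocount of 0.1 TPM equals 8.73 reads of Itgam and 0.293 of Retnlg, so that it shrinks fold changes unequally between genes. N mice 4 and 5 were of other genotypes than the rest.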

Additional observations from a re-analysis of the deposited data

Results flagged for a closer look

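In groups of 5 or 6 mice, the highest or lowest mouse was singled out when its gap to the nearest other mouse took an unusually large part of the range of the group. Of 28 groups of mice checked over the 10 genes, 10 had such a mouse. For normally distributed values chance alone singles out about 1 in 20, but TPM near 0 are skewed, so that the 10 of 28 cannot be held against that rate. N mouse 1 was far above the other N mice for 6 genes, at 0.0349 TPM for Cd177, 1.52 for Retnlg, 3.55 for Csf3r, 2.59 for Fpr1, 0.898 for Itgam and 6.58 for Clec4d. E mouse 5 was far above the other E mice for 4 genes, at 0.0384 TPM for Cd177, 2.68 for Retnlg, 2.43 for Fpr1 and 5.22 for Fpr2. The values of Cd177 are a single read each with the rest of the group at 0, which singles out the mouse by construction. The genes are correlated, so that these are not independent cases, and no mouse was singled out in the EY group. No explanation was tested.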

How the results depend on the processing

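In EY against N, 2 members were called, and 1 with a pseudocount of 1 TPM, a filter of 1 TPM, quantile normalization, the 3 N mice with Krt14-CreERT/LSL-rtTA alone, or the groups compared alone. The member called with a pseudocount of 1 TPM was Retnlg, with neither Ly6g nor Cd177, and in the other settings with 1 it was Ly6g. At an adjusted p below 0.05 there were 5, and leaving out a mouse gave 1 to 4. In EY against E, 2 were called, and 1 with a pseudocount of 1 or 0.01 TPM, a filter of 1 TPM, median-of-ratios scaling, quantile normalization, the 3 N mice, the groups compared alone or voom. With a pseudocount of 1 TPM this was again Retnlg, and in the other settings with 1 it was Ly6g. At 0.05 there were 5, and leaving out a mouse gave 1 to 5. In EY against Y, 1 was called, and 0 with a pseudocount of 1 TPM, a filter of 1 TPM, median-of-ratios scaling, quantile normalization, the 3 N mice, the groups compared alone, a robust or an untrended eBayes, or voom, and leaving out a mouse gave 0 to 1. For the interaction, 0 were called, and 0 to 1 with a mouse left out. The cause was not tested.

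With mouse number as replicate block, 4 members were called in EY against N and 5 in EY against E, and 2 relative to pan-leukocyte genes in either. EY mouse 6 is the only mouse of its number, so that by construction the block takes it out of the comparison. Mouse numbers do not pair the groups: over 24 pairs of mice with the same number the correlation had a median of 0.0119.

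Relative to pan-leukocyte genes, 0 members were called in EY against N, and 1 with a pseudocount of 1 or of 0.01 TPM, 2 at an adjusted p below 0.05 and 0 to 2 with a mouse left out. In EY against E, 0 were called, and 1 with a pseudocount of 0.01 TPM, 2 at 0.05 and 0 to 2 with a mouse left out. The cause was not tested.

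Over all genes, 4157 were called in EY against N and 7248 without a limit on the fold change, and 2914 and 5746 in EY against E. In Y against N 1042 were called, 657 with the 3 N mice, 615 with the groups compared alone, 1599 at 0.05, 1935 without a fold limit and 639 to 1040 with a mouse left out. In E against N 274 were called, 150 with the groups compared alone and 414 at 0.05. In EY against Y 454 were called, 211 with the groups compared alone, 865 at 0.05, 803 without a fold limit and 200 to 497 with a mouse left out. For the interaction 40 were called, 118 by voom, 148 at 0.05 and 28 to 73 with a mouse left out. Looser limits call more by construction, and otherwise the cause was not tested.

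None of the log2 fold changes that changed sign was called. In Y against N, Itgam was at -0.04 with a pseudocount of 1 TPM and at -0.51 with the 3 N mice. In E against N, a pseudocount of 1 TPM gave 0.04 for Retnlg and -0.02 for Cxcr2, and one of 0.01 TPM gave -0.45 for Fpr2. Median-of-ratios scaling gave -0.05 for Cxcr2, -0.02 for Fpr1 and -0.05 for Fpr2. The 3 N mice gave -0.47 for Csf3r, -0.22 for Fpr1, -0.63 for Fpr2, -0.39 for Itgam and -0.66 for Clec4d. Fpr2 was at -0.05 by voom and at -0.12 with reads divided by exon length. With a mouse left out, the range in E against N was -1.06 to 0.39 for Retnlg, -0.22 to 0.98 for Csf3r, -0.38 to 0.43 for Cxcr2, -0.61 to 0.74 for Fpr1, -0.62 to 0.90 for Fpr2, -0.20 to 0.71 for Itgam, -0.82 to 0.16 for Trem1 and -0.16 to 0.93 for Clec4d. In Y against N it was -0.47 to 0.55 for Csf3r, -0.85 to 0.65 for Fpr1 and -0.20 to 0.59 for Itgam. In EY against E it was -0.24 to 1.19 for Fpr2, and in EY against Y -0.15 to 3.72 for Retnlg, which was at 2.26 with all mice and at -0.15 without Y mouse 2. The cause was not tested. No member fold change reversed in EY against N or in the interaction under the alternatives run.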
